A study of Mus musculus with 40 samples.

Results

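The mucus genes of the colonic goblet cell followed here were Muc2, Fcgbp, Clca1, Zg16, Tff3, Agr2, Spink4, Spdef and Capn9. They were picked by name, as the 9 rows among 45792 mouse gene rows of the count table whose Ensembl identifier maps to these symbols. The samples were epithelial cells of the colon and total colon tissue, from mice inoculated with 2000000 sorted Tritrichomonas musculis (T.mu, a flagellate protozoan that lives in the mouse gut) and from control mice with no inoculum. The 12 groups were the 2 tissues, the inoculum or none, and 3, 14 or 48 days, and a group held 3 libraries on the earlier days and 4 at day 48. No genotype is named for any group, and strain, sex and age are not given in the sources used here. Each library title carries a number (as in C-L1 and TM1), taken here as the litter. Controls and inoculated mice with the same number are taken to share a litter.

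Goblet cells fill their apical granules with mucin and release it as the gel that separates the colonic epithelium from the gut content. Muc2 is the polymer of that gel. Fcgbp (a protein with von Willebrand domains), Clca1 (a metalloprotease), Zg16 (a lectin that binds bacteria) and Tff3 (a trefoil peptide) are secreted with it. Agr2 is a disulfide isomerase of the endoplasmic reticulum on which Muc2 production depends, Spink4 is a secreted protein of the Kazal type of protease inhibitors, Spdef is a transcription factor of goblet cell maturation, and Capn9 is a calpain protease of the digestive tract. In the GRCm38 annotation (GENCODE M21) all 9 are protein-coding genes. Muc2 (ENSMUSG00000025515.13) lies at chr7:141690340-141754693 on the plus strand, Fcgbp (ENSMUSG00000047730.15) at chr7:28071236-28120862 on the plus strand, Clca1 (ENSMUSG00000028255.6) at chr3:145003817-145032776 on the minus strand and Tff3 (ENSMUSG00000024029.4) at chr17:31125306-31129646 on the minus strand. Zg16 was the 1 member with annotated genes overlapping it, and these held no counts in the table.

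The promoters of Muc2 and Fcgbp are shown because these partners in the gel, both on chromosome 7, had fold changes of opposite sign in inoculated epithelium at day 48. Each line gives the 250 bases before the annotated start in RefSeq (GRCm38.p6, plus strand), chr7:141690090-141690339 for Muc2 and chr7:28070986-28071235 for Fcgbp, and the capitals mark the letters CAGCTG, an E-box.
Muc2: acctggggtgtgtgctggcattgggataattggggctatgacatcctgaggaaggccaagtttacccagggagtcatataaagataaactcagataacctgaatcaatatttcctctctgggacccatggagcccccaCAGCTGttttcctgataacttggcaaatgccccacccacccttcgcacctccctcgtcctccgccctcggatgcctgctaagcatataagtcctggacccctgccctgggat
Fcgbp: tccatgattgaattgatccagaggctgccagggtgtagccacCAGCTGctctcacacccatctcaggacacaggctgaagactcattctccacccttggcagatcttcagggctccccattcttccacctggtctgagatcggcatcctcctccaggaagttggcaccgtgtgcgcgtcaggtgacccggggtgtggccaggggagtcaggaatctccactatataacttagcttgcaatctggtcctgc
The E-box letters start 112 bases before the start of Muc2 and 208 bases before that of Fcgbp, and they were not in this window of the other members with an entry, Capn9, Agr2 and Spdef (5 of 9 matched). Among all 32851 RefSeq windows of the same 250 bases, 13% held CAGCTG, a palindrome that reads the same on both strands. Searched on both strands as well were GGAT, found in all 5 windows and in 74.1% of those of all promoters, TATAAA, found in Muc2 and in 12.4%, and TGTTTAC and TTTATTG, in none of the 5 and in 3.17% and 4.2%. The match is a description of the letters, and binding was not measured.

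Levels are given as CPM, the mouse counts of a gene relative to the library total after TMM scaling, with a separate scaling for each tissue unless both tissues are compared. The libraries count transcript ends, so levels are not divided by gene length and are compared between samples, not between genes. Mouse counts per library ranged from 170291 to 2866306 in epithelium (median 1166080) and from 220717 to 6756616 in total tissue (median 2158349). Depth differed between arms, with group medians of 327125 in controls and 842506 with T.mu in epithelium at day 3, 351445 and 2093251 in tissue at day 14, and 3323898 and 504696 in tissue at day 48. In total tissue at day 48 the 2 arms also carried different second library indices, so index and inoculum cannot be told apart there. Fold changes are log2 values of T.mu over control with their standard errors (SE), from edgeR's quasi-likelihood test, with Benjamini-Hochberg adjustment over all genes tested (10119 in epithelium, 11696 in tissue) and a threshold of 0.05. All 9 members passed the filter on low counts in both tissues.

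In uninoculated mice, 8 of the 9 mucus genes were higher in the epithelial preparation than in total tissue, the exception being Capn9. In this comparison 52.8% of the 11834 genes tested were called, and 23.1% of the genes tested were called higher in epithelium. On a scale common to all 40 libraries, Muc2 stood at 20677 ± 5555 CPM (SD, n = 10) in control epithelium and 2492 ± 807 in control tissue (n = 10), a log2 difference of 3.07 ± 0.17 SE. Spink4 followed at 3056 ± 921 and 406 ± 106 CPM (log2 difference 2.91 ± 0.19), Agr2 at 2878 ± 582 and 517 ± 175 CPM (2.47 ± 0.16) and Tff3 at 3777 ± 849 and 854 ± 160.3 CPM (2.14 ± 0.13). For these 4 genes and Spdef, every control epithelium lay above every control tissue library, as it did for 4.24% of all genes tested.

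Of the secreted partners, Fcgbp, Zg16 and Clca1 differed less between the preparations than Muc2 and Tff3. Fcgbp measured 2269 ± 629 CPM in control epithelium and 1173 ± 387 in control tissue (log2 difference 1.02 ± 0.15), Zg16 5292 ± 1034 and 2945 ± 636 CPM (0.83 ± 0.11), and Clca1 2322 ± 529 and 1293 ± 390.4 CPM (0.80 ± 0.21). The 95% intervals of these log2 differences, 0.72 to 1.31 for Fcgbp, 0.61 to 1.05 for Zg16 and 0.37 to 1.23 for Clca1, all ended below the 2.73 at which the interval of Muc2 began; the differences between genes were not themselves tested. With RLE size factors in edgeR the median of all genes moved from -0.07 to 0.18 and the share of calls that were higher from 43.8% to 57.6%. With scaling to pan-epithelial genes the median and this share were 0.53 and 74.2%. The same 8 members were called higher under both, as were 3626 (RLE) and 4975 (pan-epithelial) of all 11834 genes tested. The Clca1 call had an adjusted p of 0.00195 and was lost without the filter on low counts (adjusted p = 0.0893, edgeR). Spdef was counted far less often, at 51.4 ± 17.9 CPM in epithelium and 13.5 ± 6.53 in tissue (1.99 ± 0.24). Capn9 had nearly equal means, 14.1 ± 9.66 and 14.1 ± 7.57 CPM, and its log2 difference of 0.12 ± 0.33 had an adjusted p of 0.790, with an interval from -0.54 to 0.77.

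**Figure D1:**
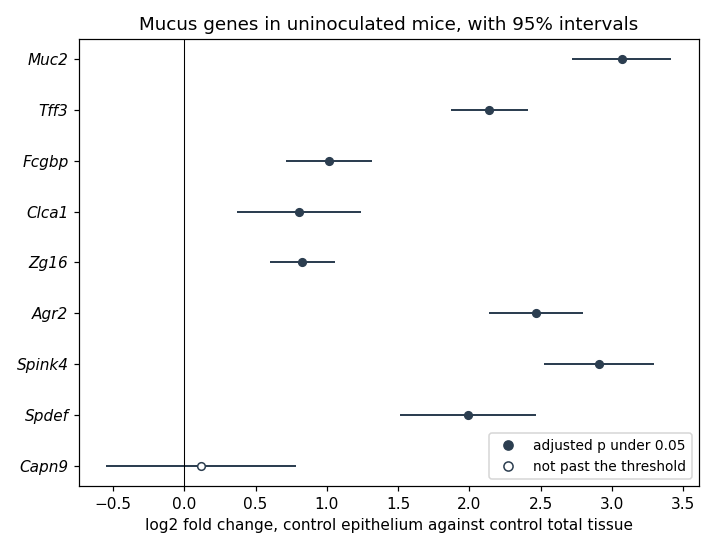
Log2 fold change of control epithelium over control total tissue for the 9 genes (x axis, with 95% intervals), filled points being past the adjusted p threshold of 0.05. Muc2 lies farthest to the right at 3.07, Fcgbp, Zg16 and Clca1 lie between 0.80 and 1.02, and Capn9 spans 0.

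Count ratios within a library, which need no scaling, show the same unequal steps. In controls, Zg16 had 0.171 to 0.412 counts per Muc2 count in epithelium and 0.924 to 1.76 in tissue, and Clca1 had 0.0682 to 0.203 and 0.353 to 0.667. Neither pair of ranges overlapped, and the share of all genes apart in this way was not counted. Muc2 had the largest log2 difference of the members between the preparations, 3.07, beside a median of -0.07 over all genes. These ratios therefore move with their denominator, whose part was not tested. For Agr2 per Muc2 the ranges, 0.0857 to 0.262 and 0.128 to 0.285, overlapped, and so did those of Spink4, 0.0691 to 0.307 and 0.0901 to 0.274. The preparations also differed in other cell types: summed markers of smooth muscle had a median of 55.8 CPM in control epithelium and 6084 in control tissue (12 genes), fibroblast and matrix markers 189 and 1913 CPM (13 genes), and absorptive colonocyte markers 19377 and 72035 CPM (19 genes). Pan-epithelial markers (13 genes) were lower in the epithelial preparation, with medians of 10345 and 15521 CPM. Stem and proliferating markers (20 genes) were higher in it, at 622 and 202 CPM. Over all libraries, ribosomal RNA genes held 26.1% to 46.9% of counts in epithelium and 9.05% to 29.6% in tissue. The part of these in the differences was not tested. In such bulk samples fewer goblet cells and less RNA per goblet cell cannot be told apart.

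At day 14, 5 of the 9 mucus genes were lower in every inoculated epithelium than in every control: Muc2, Tff3, Zg16, Agr2 and Spink4. Of all genes tested, 8.94% were lower in that way, and 9.76%, with 0 members, were higher. Tff3 alone passed the test across all genes, where 0.504% of genes were called, 0.168% as lower. Tff3 stood at 4499, 3853 and 3449 CPM in the controls of litters 1, 2 and 3 and at 1588, 1826 and 2364 CPM with T.mu. The lowest control was thus well above the highest inoculated library, and the group means were 3934 ± 529.6 and 1926 ± 397.6 CPM (SD, n = 3 each). Its log2 fold change was -1.03 ± 0.26 SE (adjusted p = 0.0420, edgeR), with a 95% interval from -1.55 to -0.51.

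The Tff3 call stood near its threshold. With litter as a block it had an adjusted p of 0.0523, and leaving out any 1 of the 6 day-14 libraries gave adjusted p-values from 0.0551 to 0.333 (edgeR) with fold changes from -1.20 to -0.89.

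Zg16 measured 6256, 5486 and 6011 CPM in the day-14 controls and 3891, 3610.04 and 4034 CPM with T.mu, a gap with little spread on either side (log2 fold change -0.62 ± 0.22, adjusted p = 0.242). DESeq2 and limma voom called Zg16 (adjusted p = 0.00293 and 0.0464), as did edgeR fitted to the day-14 libraries alone (0.0382). Over all genes, calls in epithelium at day 14 ranged from 19 to 262 across the reported fit and its alternatives. Spink4 measured 2717, 3635 and 3032 CPM in controls and 946, 1901 and 2167 CPM with T.mu (-0.90 ± 0.30, adjusted p = 0.211), and was called by edgeR without the filter on low counts (0.0108) and with the day-14 libraries alone (0.00867).

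Muc2 itself was at 21659, 30648 and 18506 CPM in controls and 18081, 15354 and 16579 CPM with T.mu, so that its groups lay close to each other (-0.50 ± 0.24, adjusted p = 0.463). Agr2 was at 2521, 2628 and 2981 CPM in controls against 1468, 2388 and 2294 CPM (-0.40 ± 0.24, adjusted p = 0.582). Fcgbp, Clca1, Spdef and Capn9 had overlapping groups and log2 fold changes of 0.11, 0.06, 0.07 and 0.39. The epithelial mucus genes therefore did not share 1 direction at day 14: 5 had negative and 4 positive fold changes, with a median of -0.40 beside 0.01 over all genes tested. With libraries scaled to the summed counts of 13 pan-epithelial genes in place of TMM, which moves the median of all genes to -0.34, 8 of the 9 were negative and 0 were called.

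Marker sums of other cell types stood apart in the same libraries. Enteroendocrine markers (18 genes) summed to 510 to 732 CPM in day-14 control epithelium and 338 to 399 with T.mu, and plasma and B cell markers (12 genes, 4 at 0 in each arm) to 210.2 to 263 and 290.4 to 352 CPM. The plasma and B cell list includes Xbp1, which is also counted below among the goblet lineage factors. T and innate lymphoid markers (17 genes) summed to 12.2 to 16.2 CPM in controls and 18.0 to 26.0 with T.mu. Of these genes 10 were at 0 in every control and 5 in every T.mu library. Macrophage and dendritic markers (12 genes, 3 at 0 in controls) summed to 15.2 to 15.7 and 6.91 to 12.7 CPM. Both of these lists rest on few counts. Smooth muscle markers (12 genes) summed to 51.4 to 60.4 and 30.6 to 50.05 CPM. The goblet list of mucin folding and granule secretion (25 genes) was higher in its sum, at 2285 to 2695 CPM in controls and 2876 to 3205 with T.mu. Absorptive colonocyte markers (19 genes) overlapped, with 14623 to 18578 and 12304 to 14983 CPM. The part of these in the mucus gene values was not tested.

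**Figure D2:**
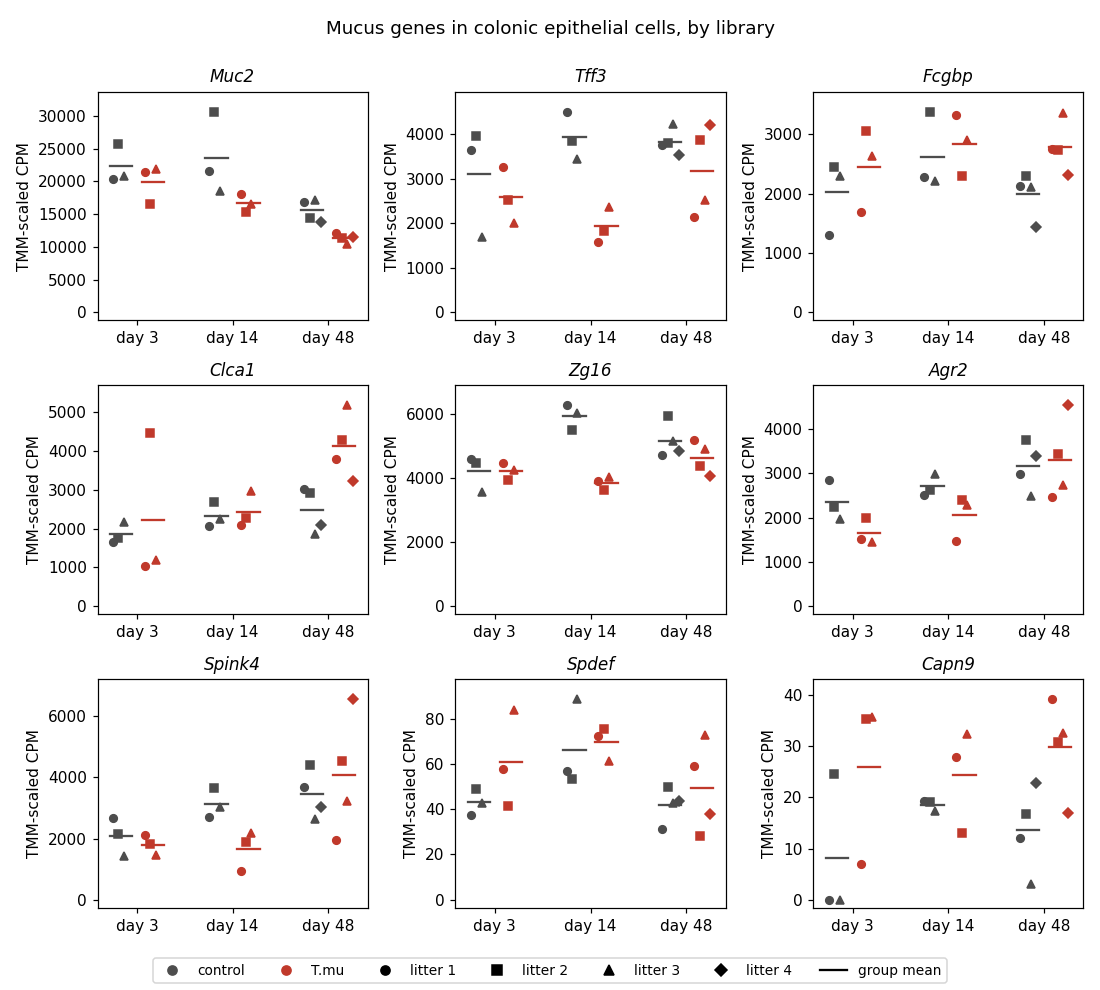
TMM-scaled CPM (y axis, from 0) of the 9 genes in each epithelial library, by day (x axis), with controls in grey, T.mu in red, marker shape for litter and a bar for the group mean. Tff3, Zg16 and Spink4 show their widest separation at day 14, while Muc2 is lower and Fcgbp and Clca1 are higher in every T.mu library at day 48.

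At day 48 Muc2 lay below the controls in epithelium and Clca1 and Fcgbp above them, and none of the 3 passed the test. Muc2 was at 16915, 14348, 17221 and 13826 CPM in controls and at 12175, 11352, 10499.8 and 11444 CPM with T.mu, every inoculated library below every control (log2 fold change -0.45 ± 0.21). Clca1 was at 3018, 2913, 1858 and 2086 CPM in controls and 3803, 4292, 5182 and 3221 CPM with T.mu, every inoculated library above every control (0.74 ± 0.30). Fcgbp was at 2124, 2290.2, 2105 and 1437 CPM in controls and 2755, 2731, 3363 and 2321 CPM with T.mu, again without overlap (0.49 ± 0.22).

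Separation of this kind was found below the controls in 1.94% and above them in 2.09% of all genes at day 48. Across all genes the adjusted p-values were 0.996 for Muc2, 0.928 for Clca1 and 0.996 for Fcgbp (edgeR). DESeq2 and limma voom called none of the 9 either. The background was 0.296% of genes called, and 4 of the 9 members, the 3 above and Capn9, had an unadjusted p under 0.05, as 4.57% of all genes did. Enteroendocrine markers (18 genes) stood apart in the same libraries, with sums of 567 to 787 CPM in controls and 469 to 523 with T.mu, as did fibroblast and matrix markers (13 genes), with 158 to 197 and 200.4 to 261 CPM, and their part was not tested. Capn9 had 12, 16.8, 3.00 and 22.7 CPM in controls and 39.2, 30.9, 32.6 and 16.9 CPM with T.mu (1.20 ± 0.47, adjusted p = 0.912), from 5 to 119 counts per library. Tff3, Zg16, Agr2, Spink4 and Spdef overlapped between arms, with fold changes from -0.27 to 0.28; Spink4 with T.mu spread from 1951 to 6549 CPM.

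At day 3 none of the 9 genes separated the arms in epithelium and none was called (edgeR, DESeq2 and limma voom), against 0.356% of all genes called by edgeR and 4.60% lying below and 7.60% above every control. Agr2 was the 1 member with an unadjusted p under 0.05, as 11% of all genes had, at 2860, 2239.5 and 1978 CPM in controls and 1511, 1986 and 1445 CPM with T.mu (-0.52 ± 0.24, adjusted p = 0.418). Clca1 with T.mu was at 1044, 4469 and 1178 CPM, litter 2 standing far above the other litters and above the controls at 1655, 1754 and 2164. Capn9 had no count in 2 of the 3 controls, whose totals of 327125 and 170291 allow up to 9.17 and 17.6 CPM (3 counts, counting error only).

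Averaged over the 3 days, Tff3 was again the 1 member called in epithelium (-0.52 ± 0.14, adjusted p = 0.0270, edgeR), against 3.39% of all genes, 0.929% as lower. It was lower with T.mu in 7 of 10 litter pairs, and the call was lost in 11 of the 20 fits that left out 1 library (adjusted p from 0.00347 to 0.113 over all 20). Muc2 was lower in 8 of 10 pairs (-0.37 ± 0.13, adjusted p = 0.0985), as were Zg16 and Agr2 (-0.26 ± 0.12 and -0.29 ± 0.13). Fcgbp was higher in 9 of 10 pairs (0.29 ± 0.14, adjusted p = 0.230), Capn9 in 8 (0.90 ± 0.34, adjusted p = 0.120), Clca1 in 7 (0.35 ± 0.19) and Spdef in 6 (0.29 ± 0.18). The share of all genes with as many pairs on 1 side was not counted. Without the control library of litter 2 at day 3, which held all Capn9 counts of its group, Capn9 had a fold change of 3.17 (adjusted p = 0.00418), and without the T.mu library of litter 1 at day 3 it had 1.08 (0.0362). Scaled to the pan-epithelial genes, an alternative chosen after the day results were seen, the median of all genes moved from 0.02 to -0.28 and 3 members were called lower, Tff3 (-0.76 ± 0.20), Muc2 (-0.68 ± 0.19) and Zg16 (-0.56 ± 0.16), while Fcgbp stood at -0.01 and Spdef at -0.04. Under that scaling 464 of all 10119 genes tested were called lower and 57 higher. Over all genes, calls in this mean ranged from 137 to 590 across the reported fit and its alternatives. A test of whether the response differed between days called 0 members, and 0 of all genes, in epithelium, with Spink4 the 1 member and 419 genes in all at an unadjusted p under 0.05.

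**Figure D3:**
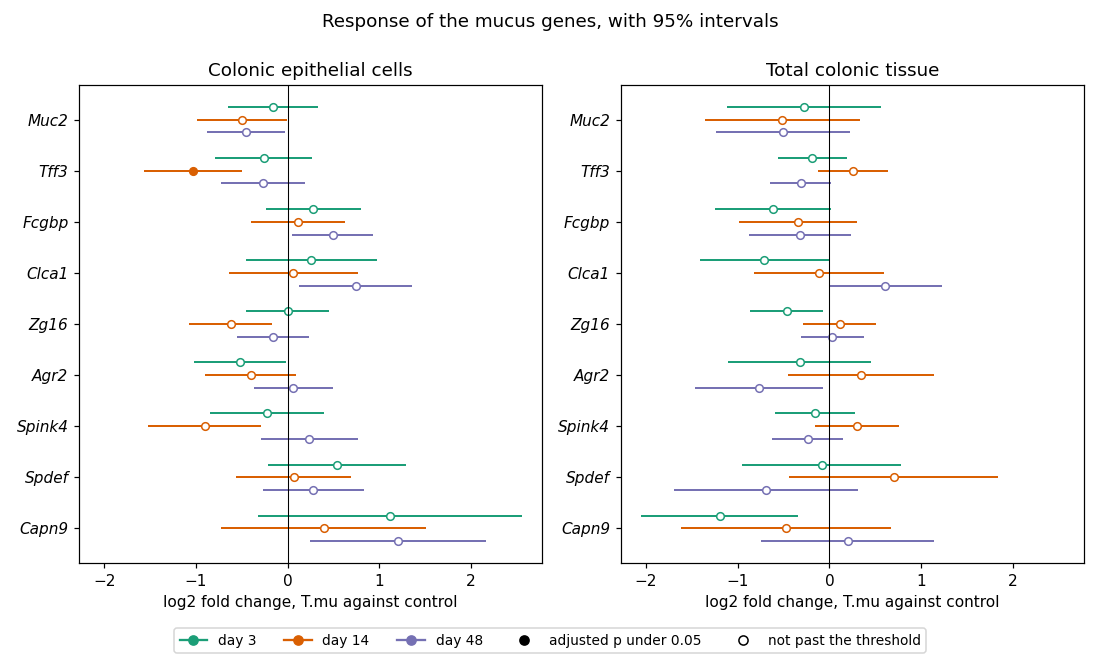
Log2 fold change of T.mu over control (x axis) with 95% intervals for the 9 genes by day, in epithelial cells (left) and total tissue (right), filled points being past the adjusted p threshold. Tff3 in epithelium at day 14, at -1.03, is the 1 filled point in the plot.

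In total tissue no mucus gene was called on any day, against 0.470% of all genes at day 3, 0.966% at day 14 and 1.80% at day 48 (edgeR), and DESeq2 and limma voom called none either. At an unadjusted p under 0.05 there were 3 members at day 3, 0 at day 14 and 2 at day 48, beside 5.18%, 9.23% and 13.7% of all genes. At day 3 all 9 fold changes were negative, with a median of -0.32 beside -0.01 over all genes. In the same libraries fibroblast and matrix markers (13 genes) summed to 1337 to 2528 CPM in controls and 2612 to 3229 with T.mu. Macrophage and dendritic markers (12 genes) summed to 232 to 407 and 514 to 689 CPM, and neither list overlapped. The goblet list of other secreted and marker genes (35 genes) was also higher in its sum, at 22585 to 23479 and 25588 to 28201 CPM. That sum was likewise apart at day 14 (18408 to 22065 and 26685 to 35555) and at day 48 (18635 to 21528.5 and 23056 to 27645). Absorptive colonocyte markers (19 genes) were higher without overlap on both of these days. They summed to 70094 to 79928 and 88717 to 97024 CPM at day 14, and 60072 to 74625 and 76913 to 86709 at day 48. Also higher without overlap at day 14 were stem and proliferating markers (185 to 209 and 282 to 308), plasma and B cell markers (545 to 805 and 870 to 1169) and goblet lineage factors (940 to 1122 and 1147 to 1558). The part of these lists was not tested. Fcgbp was at 1462, 1166 and 1836 CPM in controls and 1070.4, 862 and 978 with T.mu (-0.62 ± 0.29, adjusted p = 0.967), and Zg16 at 3440, 2963 and 4298 against 2611, 2728 and 2410.4 CPM (-0.47 ± 0.19, adjusted p = 0.784). With Clca1 (-0.71 ± 0.33) and Capn9 (-1.20 ± 0.42) these were the 4 members lying below every control, as 7.61% of all genes did, and 0 lay above, as 6.84% did. Fitted to the day-3 libraries alone, Fcgbp was called (adjusted p = 0.0333, edgeR). Over all genes, calls in tissue at day 3 ranged from 41 to 103 across the reported fit and its alternatives.

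The mean over days in tissue called 0 members, against 1.91% of all genes, with fold changes from -0.49 (Capn9) to -0.02 (Spdef), all 9 negative. Fcgbp was the 1 member with an unadjusted p under 0.05 there, as 10.9% of all genes had (-0.43 ± 0.16, adjusted p = 0.295), and it was called with pan-epithelial scaling (-0.48 ± 0.10, 0.00241), without libraries under 400000 counts (-0.55, 0.00136) and without the filter on low counts (-0.49, 0.000276). Over all genes, calls in this mean ranged from 146 to 259 across the reported fit and its alternatives.

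At day 14 all 9 genes overlapped between the arms in tissue, where 8.77% of all genes lay above every control and 4.67% below. They had 5 positive and 4 negative fold changes from -0.51 (Muc2) to 0.70 (Spdef), and 2 of the 3 controls had under 400000 counts. At day 48 all 9 overlapped as well, against 2.71% above and 6.72% below. Clca1 was at 1464, 1568, 910.3 and 1125 CPM in controls and 1365, 1935, 1894 and 2544 CPM with T.mu (0.61 ± 0.28, adjusted p = 0.357), the same sign as in epithelium. Agr2 was at 835, 639, 519 and 283 CPM in controls and 389, 277, 415 and 242 with T.mu, where the counts behind it were 57 to 520 (-0.77 ± 0.32, adjusted p = 0.300). Without the filter on low counts Agr2 had a fold change of -0.91 and was called (adjusted p = 0.000547, edgeR). Over all genes, calls in tissue at day 48 ranged from 99 to 454 across the reported fit and its alternatives.

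**Figure D4:**
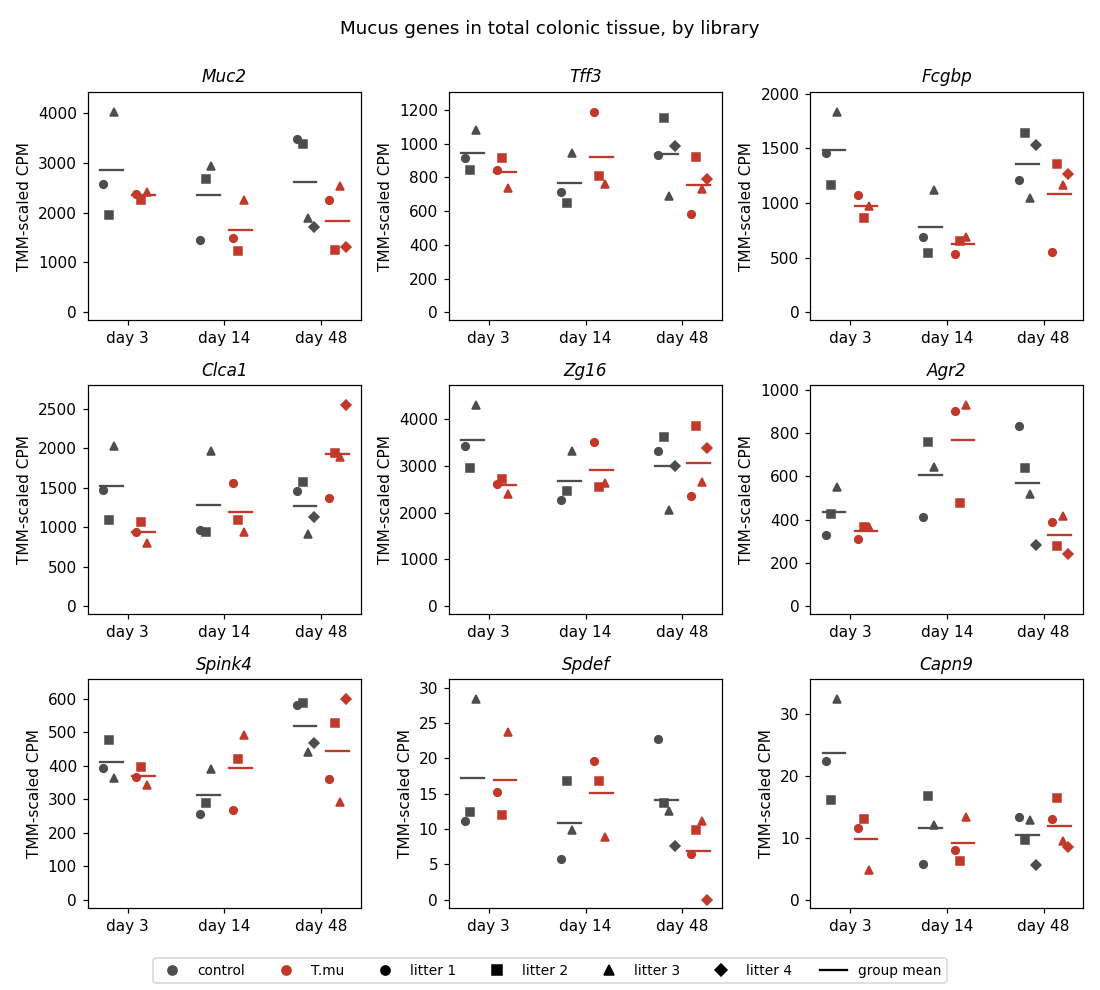
TMM-scaled CPM (y axis, from 0) of the 9 genes in each total tissue library, by day (x axis), with controls in grey, T.mu in red, marker shape for litter and a bar for the group mean. At day 3 Fcgbp, Clca1, Zg16 and Capn9 lie below every control in each T.mu library, and at days 14 and 48 all 9 genes overlap.

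Whether epithelium and tissue responded differently was tested as an interaction over the 40 libraries, and no member was called on any day, against 0.0338% of genes at day 3, 0 of 11834 at day 14 (844 at an unadjusted p under 0.05) and 0.0338% at day 48. Members at an unadjusted p under 0.05 numbered 2, 3 and 2 on these days, beside 10.7%, 7.13% and 9.31% of all genes. The median difference over all genes at day 3 was 0.16 with TMM, -0.06 with RLE and -0.45 with pan-epithelial scaling. Tff3 at day 14 had the lowest p of the members, with a difference of -1.28 ± 0.33 between its epithelium and tissue fold changes (epithelium minus tissue, adjusted p = 0.245) and an interval from -1.92 to -0.63. Its fold change in tissue was 0.25 ± 0.19, with controls at 713, 646 and 946 CPM and T.mu at 1190, 811 and 759. Fcgbp differed by 0.97 ± 0.37 at day 3 and 0.84 ± 0.32 at day 48, higher in epithelium both times, and Zg16 by -0.73 ± 0.28 at day 14, with adjusted p-values of 0.347, 0.397 and 0.533. The test between days in tissue called 0 members, and 0.0684% of all genes, with Clca1 the 1 member at an unadjusted p under 0.05, as 9.75% of all genes were. Among controls alone, a test between days called 0 members in epithelium (0.0791% of all genes) and 0 in tissue (1.15%). At an unadjusted p under 0.05 there were Muc2 and Spink4 in epithelium, where 11.4% of all genes were, and Fcgbp, Spink4 and Capn9 in tissue, where 11.3% were.

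Set against Muc2 in the same library, Fcgbp had higher count ratios with T.mu in epithelium at days 14 and 48, and Clca1 at day 48. Fcgbp counts per Muc2 count were 0.128 on average in day-48 controls (0.104 to 0.160) and 0.247 with T.mu (0.203 to 0.320), and at day 14 they were 0.112 (0.105 to 0.119) and 0.169 (0.149 to 0.184). Clca1 per Muc2 was 0.160 (0.108 to 0.203) and 0.366 (0.281 to 0.493) at day 48. None of these ranges overlapped. At day 3 the ranges overlapped for both genes, with 0.0641 to 0.110 in controls and 0.0789 to 0.185 with T.mu for Fcgbp and 0.0682 to 0.104 and 0.0488 to 0.271 for Clca1, and Clca1 overlapped at day 14 as well (0.0878 to 0.121 and 0.115 to 0.179). However, a ratio to Muc2 above every control was also found for 12.9% of all genes at day 3, 22.8% at day 14 and 12% at day 48, so that the separation is shared with many genes. In tissue at day 48 the Clca1 ratio was 0.507 (0.421 to 0.661) in controls and 1.21 (0.607 to 1.94) with T.mu, and overlapped.

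**Figure D5:**
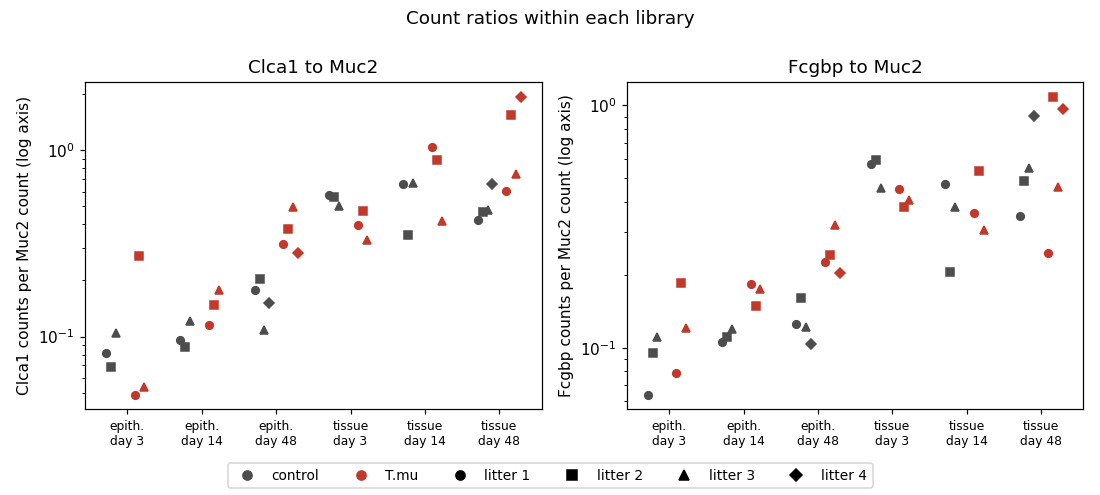
Counts of Clca1 (left) and Fcgbp (right) per count of Muc2 in each library (y axis, logarithmic), by tissue and day (x axis), with controls in grey, T.mu in red and marker shape for litter. The epithelial day-48 ratios of the T.mu libraries, 0.281 to 0.493 for Clca1 and 0.203 to 0.320 for Fcgbp, lie above those of the controls.

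Per 1000 counts of 13 pan-epithelial genes such as Epcam and keratins, the 9 mucus genes together gave 4103 ± 176 counts in day-3 control epithelium and 2815 ± 492 with T.mu (SD, n = 3 each), 4076 ± 1172 and 2257 ± 332 at day 14, and 3880 ± 274 and 3450.4 ± 1018 (n = 4 each) at day 48. The groups did not overlap at days 3 and 14 and did at day 48, and the share of all genes apart in this way was not counted. Scaling to these genes moved the median of all genes to -0.37 at day 3 and -0.34 at day 14. Muc2 alone gave 2406 counts on this measure in day-3 controls and 1585 with T.mu. The pan-epithelial sum itself differed at day 3, with 8640 to 10499.6 CPM in controls and 10866 to 15517 with T.mu, so this measure moves with its denominator, whose part was not tested. In total tissue the pan-epithelial sum separated at day 14, with 13234 to 15869.9 CPM in controls and 16650.5 to 19168 with T.mu, where the summed mucus genes overlapped (medians 8342 and 8724 CPM). The same measure in total tissue was 603 ± 119 in controls and 488 ± 12.9 with T.mu at day 3. It was 618 ± 104 against 489 ± 98.9 at day 14, and 649 ± 142 against 612 ± 41.2 at day 48.

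Other genes linked to mucus or to goblet cells were taken as 5 lists: transcription factors of the goblet lineage (12 tested in epithelium), mucin O-glycosylation and sulfation (20), mucin folding and granule secretion (24), other mucins (5), and other secreted and marker genes (31). Not all of these genes are particular to goblet cells. Elf3, a listed lineage factor, is also among the pan-epithelial genes, and a call in a list does not name the cell type behind it. In epithelium 0 of these were called at days 3 and 14, where 0.356% and 0.504% of all genes were. At day 48 Reg4, a secreted lectin, rose (log2 fold change 1.03 ± 0.23, adjusted p = 0.0223, edgeR), where 0.296% of all genes were called. Reg4 was not called with limma voom, with pan-epithelial scaling, or without the control library of litter 3 or 4 or the T.mu library of litter 2 or 4. As the mean over days 11 of 92 were called, 5 higher and 6 lower, where 3.39% of all genes were called. With pan-epithelial scaling, which moves the median of all genes by -0.30, 19 were called, 0 higher and 19 lower. Of all 10119 genes tested, 57 were called higher and 464 lower in that fit. The 5 higher calls therefore hold under TMM but not under that scaling. The core 1 synthase C1galt1 and its chaperone C1galt1c1 were lower together (-0.67 ± 0.17 and -0.57 ± 0.16), and so were Sytl2 and Sytl4, synaptotagmin-like proteins of granule docking (-0.73 ± 0.21 and -0.99 ± 0.30), Nxpe2 (-0.57 ± 0.15) and Sval1 (-0.79 ± 0.20). Higher were the sialyltransferases St3gal4 and St6galnac6 (0.65 ± 0.16 and 0.67 ± 0.17), the N-acetylglucosaminyltransferase B3gnt3 (0.63 ± 0.18), the disulfide isomerase P4hb (0.50 ± 0.14) and Lypd8, a secreted protein that binds flagellated bacteria (0.44 ± 0.13). Without the libraries under 400000 counts this count was 1. The list medians ran from -0.21 (glycosylation) to 0.32 (other mucins), beside 0.02 over all genes.

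In total tissue 87 genes of the lists were tested, and 0 were called at day 3, 1 at day 14, 3 at day 48 and 4 as the mean over days, beside 0.470%, 0.966%, 1.80% and 1.91% of all genes. Lypd8 was the 1 at day 14 (0.83 ± 0.13, adjusted p = 5.79e-05). At day 48 Lypd8 (0.52 ± 0.12), the transcription factor Klf4 (0.66 ± 0.18) and the disulfide isomerase Pdia3 (0.59 ± 0.17) were higher. As the mean over days Lypd8 (0.57 ± 0.07, adjusted p = 6.35e-08), the galactosyltransferase B4galt1 (0.41 ± 0.12), the membrane mucin Muc4 (1.24 ± 0.29) and Spats2l (1.17 ± 0.24) were higher. Without libraries under 400000 counts these counts were 0 at day 14, 1 at day 48 and 2 in the mean.

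Between control tissues each list held calls in both directions, and these counts move with the scaling. Of all genes tested 23.1% were called higher and 29.7% lower. Of 13 goblet lineage factors 8 were higher in epithelium, among them Creb3l1 (3.30 ± 0.22), Foxa1 (2.55 ± 0.25) and Atoh1, which starts the secretory lineage (1.27 ± 0.19), and 4 were lower. Of 20 glycosylation genes 10 were higher, such as the sialyltransferase St3gal6 (3.76 ± 0.21), and 5 lower, such as the branching enzyme Gcnt3 (-2.46 ± 0.12). Of 24 folding and secretion genes 11 were higher, with Txndc5 at 2.26 ± 0.18 and the goblet cell sensor Ern2 at 1.90 ± 0.22, and 5 were lower. Of 6 other mucins 3 were higher and 3 lower, the transmembrane mucin Muc13 at -1.36 ± 0.12. Of 32 other secreted and marker genes 20 were higher, with Wfdc2 at 5.44 ± 0.18, and 6 lower. Scaled to pan-epithelial genes, 8, 13, 18, 3 and 24 genes of the 5 lists were higher and 1, 4, 0, 1 and 3 lower. Under that scaling 4975 of all 11834 genes tested were called higher and 1731 lower. The list medians were 1.27, 0.50, 0.39, 0.43 and 1.33, beside 1.99 for the 9 mucus genes and -0.07 over all genes.

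Across the 20 epithelial libraries the members did not vary as a block. After the group means were subtracted, Agr2 and Spink4 had a Pearson r of 0.86 and Tff3 and Spink4 0.74, while Muc2 had 0.13 with Tff3, -0.35 with Clca1 and -0.46 with Agr2. In total tissue another set varied together, Tff3 with Zg16 at 0.93 and Clca1 with Zg16 at 0.87, Muc2 with Agr2 at 0.82, and Agr2 with Spink4 at -0.11. These are descriptions over 20 libraries a tissue, which share litter numbers and differ in depth. Among 10110 other genes in epithelium those most like the mean standardised profile of the members were Asap1 (r = 0.83), Chchd2, Paqr8, Sf3b1, Snrpg, Sptssb, Bmi1 and Ang (0.74). Within groups they were Pnpla6 (0.85), Cyp2c65, Slc6a6, Lsm7, Chchd2, Frg1, Ube2l3 and Ubxn2a (0.79). Among 11687 in tissue they were Atp6ap2 (0.81), Gsk3b, Tcf20, Ces2b, Alkbh5, Nr3c1, Aldh3a2 and Pde7a (0.67), and within groups Atp5b (0.91), Atp6ap2, Ckmt1, Osr2, Nr3c1, AW112010, Apol10a and Ctcf (0.79). Each of these r values is among the highest of very many genes, and no chance level was computed for them.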

How the data were processed

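RNA was counted in 40 libraries of mouse colon, 20 of epithelial cells and 20 of total tissue. The authors deposited 1 table of whole-number counts per gene, not normalized; per the labels' protocols, RNA from phenol/chloroform extraction went into 3′ digital gene expression libraries, which count transcript ends. The submitters' processing notes list STAR and Subread with no version. Build, annotation, strand and molecular identifiers: not given in the sources used here. Of the mouse identifiers 98.6% had a symbol in GENCODE M21. One entry that is not a mouse gene (0.389% of all counts) entered neither the library sizes nor the tests. Between 61.2% and 87.2% of the low counts above 0 were even in each library, so low counts are less precise than they look, and floors (3 counts) cover counting error only.

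Groups and days came from the sample labels, and the number in each title was taken as the litter. Epithelium and tissue libraries carry the same numbers, and the reported tests between tissues treated them as independent. Nothing beyond the litter number says that libraries of a group are separate mice, so the p-values measure the spread between these libraries. Counts were tested with edgeR 4.0.16 (R 4.3.3) by its quasi-likelihood test on TMM-scaled libraries with robust dispersions, after filterByExpr with a minimum count of 10 and a minimum total of 15, in 1 fit per tissue over 6 groups and 1 fit over all 12 groups for comparisons between tissues. Standard errors are the size of the log2 fold change over the square root of its F statistic. Ratios, marker sums and counts per pan-epithelial count are descriptions. Alternatives were RLE scaling, scaling to pan-epithelial genes, no filter, halved counts, leaving out libraries under 400000 counts or ribosomal RNA genes, litter as a block, limma voom (limma 3.58.1), DESeq2 1.42.0, the libraries of 1 comparison alone, and leaving out each library. Controls and T.mu of a tissue and day were paired by this litter number. Libraries of a pair had correlations of their deviations from -0.082 to 0.186 in epithelium (2 of 10 over 0.1) and from -0.103 to 0.162 in tissue (1 of 10). The code was tested on simulated counts. Named were all 9 members, up to 6 called genes per list and comparison, and in each tissue the 8 genes most like the members over libraries and the 8 within groups. Lists without a call are given as counts. The members and lists were chosen with earlier results of these data known.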

Additional observations from a re-analysis of the deposited data

Results flagged for a closer look

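Some members had every litter pair of 1 group on 1 side and every pair of another on the other side. The share of all genes that did so was not counted. Fcgbp at day 3 was higher with T.mu in all 3 epithelial pairs and lower in all 3 tissue pairs, a log2 difference of 0.97 (edgeR interaction, adjusted p = 0.347). Capn9 did the same, with a difference of 2.37 (adjusted p = 0.283), 2 of its control epithelial libraries holding no count. Spink4 at day 14 was lower in all 3 epithelial pairs and higher in all 3 tissue pairs, a difference of -1.19 (adjusted p = 0.544). Spink4 in tissue was also lower in all 3 pairs at day 3 and higher in all 3 at day 14 (test over days, unadjusted p = 0.167, adjusted p = 0.687, edgeR quasi-likelihood). None passed the test of the difference. Of the 36 sets of 4 libraries (each of the 9 genes in each group at day 48), 0 had a library standing apart by Dixon's criterion, where chance alone gives about 5%.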

How the results depend on the processing

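Under the alternatives, 1981 of 2016 member values kept their side of the threshold, 15 crossed to being called and 20 lost a call, and no called value changed sign; 74 of 1800 fold changes, all short of the threshold in the reported fits, changed sign. The count of mucus genes called in epithelium at day 14 (1) was 0 with litter as a block and with pan-epithelial scaling. The block gave each litter number the same term on all days, so it was not a pairing within a day. Without the filter, with limma voom and with DESeq2 the count was 2. It was 3 with the libraries of that comparison alone, and 0 to 0 leaving out 1 library. In the epithelial mean over days (1) it was 3 with pan-epithelial scaling and 0 to 2 leaving out 1 library. In tissue (0 throughout) it was 1 at day 3 with those libraries alone, 1 at day 48 without the filter, 1 in the mean without the filter, without libraries under 400000 counts and with pan-epithelial scaling, 1 between days without the filter, and, among controls between days, 2 without the filter and 1 with halved counts. The litter block changed no other mucus gene call.

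The counts over the 5 goblet lists moved more. Epithelium at day 3 (0) gave 1 without the filter and 0 to 1 leaving out 1 library. Day 14 (0) gave 3 without the filter, 1 with halved counts, 2 without shallow libraries, 1 with limma voom, 4 with DESeq2, 5 with those libraries alone and 0 to 1 leaving out 1. Day 48 (1) gave 0 with limma voom, 0 with pan-epithelial scaling, 3 with DESeq2 and 0 to 1 leaving out 1. The mean (11) gave 6 without the filter, 1 without shallow libraries, 19 with pan-epithelial scaling (0 higher and 19 lower, against 5 and 6) and 3 to 18 leaving out 1. Tissue at day 3 (0) gave 1 with halved counts, 1 with DESeq2 and 2 with those libraries alone. Day 14 (1) gave 5 without the filter, 0 without shallow libraries, 2 with pan-epithelial scaling, 2 with DESeq2 and 1 to 6 leaving out 1. Day 48 (3) gave 1 without shallow libraries, 8 with DESeq2 and 1 to 4 leaving out 1. The mean (4) gave 2 without shallow libraries and 2 to 7 leaving out 1. The cause was not tested. Over all genes the calls ranged from 19 to 262 in epithelium at day 14 (51 as reported), from 12 to 39 at day 48 (30), from 8 to 52 at day 3 (36) and from 137 to 590 in the mean (343), and in tissue from 41 to 103 at day 3 (55), 27 to 196 at day 14 (113), 99 to 454 at day 48 (211) and 146 to 259 in the mean (223). With pan-epithelial scaling the share of calls that were higher was 66.7% against 91.7% in epithelium at day 3, 40.7% against 66.7% at day 14, 83.3% against 93.3% at day 48 and 10.9% against 72.6% in the mean, and 42.0% against 85.0% in tissue at day 14. With RLE scaling it was 70.2% against 85.0% in tissue at day 14 and 65.6% against 55.5% at day 48.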
